A study of Mus musculus with 10 samples.

Results

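Pax7, Pax3, Myf5, Myf6, Myod1, Myog, Cdh15, Calcr and Mymk mark the stem cells of skeletal muscle and the steps by which they become muscle fibres. These 9 genes were taken by name from a table of 15883 genes. The table holds 8 of them under these names and the ninth, Mymk, under its older name Tmem8c, matched by gene ID. All 9 passed the filter on low counts and are among the 13338 genes tested. The tissue was biceps femoris, taken at 5 weeks of age from C57BL/6J males after a fast of 16 hours. The comparison is between 5 wild-type mice and 5 mice transgenic for Zfp407, a zinc finger protein, and the title of the series ties overexpression to glucose homeostasis. Both groups were fasted, and no fed group was analysed here. The promoter that drives the transgene is not given in the sources used here, nor is the number of founder lines.

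Satellite cells are the resident stem cells of muscle and lie between the fibre and its basement membrane. At rest they hold the transcription factor Pax7 and, in adult muscle, the calcitonin receptor Calcr, which keeps them quiescent. The myogenic basic helix-loop-helix (bHLH) factors bind the E-box sequence. Myf5 and Myod1 commit cells to the lineage, Myog drives differentiation, and Myf6 is abundant in mature fibres. Cdh15 (M-cadherin) joins satellite cells to fibres, and Mymk (myomaker) is a membrane protein required for myoblasts to fuse.

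Libraries held 13530367 to 19047834 counts. Zfp407, the overexpressed gene, was at 21.0 to 25.7 CPM in the wild-type libraries and at 317 to 616 CPM in the transgenic ones, so each library matched its label. CPM is the count scaled to the depth of its library, with TMM to correct for composition. Rows that resemble ribosomal RNA (Lars2, Gm15564 and Gm15662) took 14.3% to 33.9% of counts in wild type and 9.62% to 17.3% in the transgenic group. Of 11 muscle fibre markers, among them Acta1 and Ckm, all were measured and none passed the test, against 5.33% of all genes tested. Their sum was 174218 to 239828 CPM in wild type and 144709 to 176710 CPM in the transgenic group. Libraries carry the number of their column within a group, since no column is tied to a mouse.

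Calcr, Myf5 and Pax7 were higher in the transgenic muscle, and the other 6 genes did not pass the test. Calcr and Myf5 rose 3.27-fold each and Pax7 rose 1.91-fold. The test was edgeR's quasi-likelihood test with Benjamini-Hochberg adjustment over all 13338 genes, with a call at an adjusted p of 0.05. Under this rule 5.33% of all genes tested were called and 4.28% were called as higher, against 3 of these 9 genes. The 9 were chosen with earlier results of these data known, so the shares are set side by side as a description without a test. A called rise of at least 2-fold was found for 2.83% of all genes and for 2 of the 9, Calcr and Myf5. Every transgenic library lay above every wild-type library for the same 3 genes, which holds for 5.14% of all genes tested, and groups without overlap in either direction make up 8.04%. None of the 9 was called lower, against 1.05% of all genes, and none had all transgenic libraries below the wild-type ones, against 2.9%. By the authors' deposited table, an adjusted p under 0.05 is found for 7.29% of all genes, with 5.52% higher, and the same 3 of the 9 are among them. The median log2 fold change of the 9 was 0.17, and that of all genes tested was 0.003. In whole muscle, more cells of a type and more RNA per cell cannot be told apart.

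**Figure D1:**
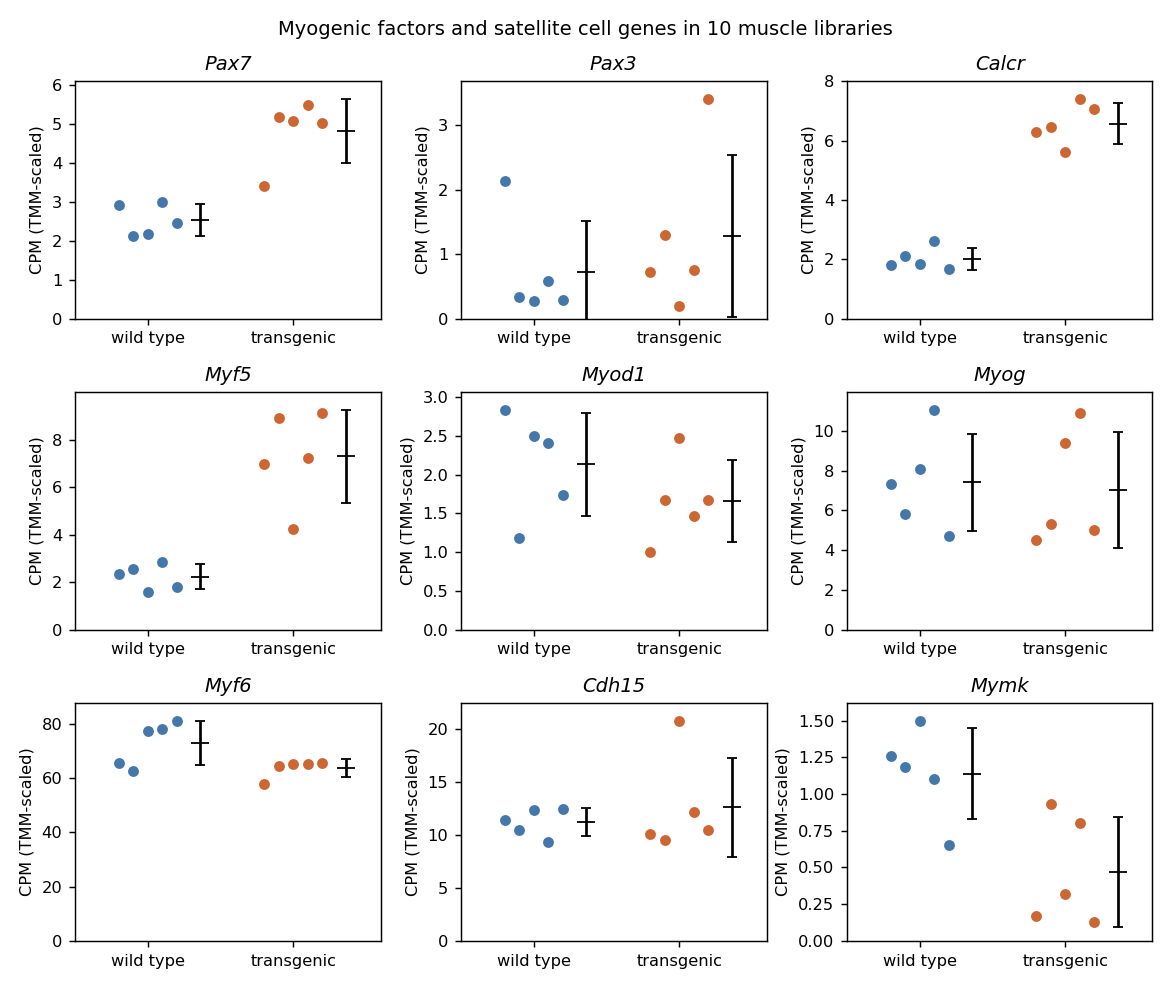
Level of each of the 9 genes in CPM (y axis, linear, from 0) in each wild-type library (blue) and transgenic library (orange), in column order within a group, with the mean ± SD of 5 libraries in black. The groups are apart for Pax7, Calcr and Myf5 and overlap for the other 6 genes; the SD bar of wild-type Pax3 runs below 0 and is clipped there.

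Pax7, the paired-box factor that defines satellite cells, stood at 2.91, 2.12, 2.16, 2.99 and 2.45 CPM in wild-type libraries 1 to 5. It stood at 3.39, 5.17, 5.06, 5.48 and 5.02 CPM in transgenic libraries 1 to 5. Transgenic library 1 was the lowest of its group and lay closer to the highest wild-type library, at 2.99 CPM, than to the next transgenic library. The means were 2.53 ± 0.410 CPM and 4.83 ± 0.821 CPM (SD, n = 5 each), a log2 fold change of 0.93 ± 0.18 (SE), with an adjusted p of 0.00969 in edgeR. The counts behind these values are small, 181 in all of wild type and 446 in the transgenic group. Its locus in GRCm38 is chromosome 4, 139737062 to 139833528, minus strand.

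Pax3, its paralogue, which marks muscle precursors in the embryo and a subset of satellite cells later, had the widest spread of the 9. Wild-type libraries held 2.13, 0.339, 0.277, 0.586 and 0.289 CPM, and transgenic libraries 0.723, 1.30, 0.190, 0.756 and 3.41 CPM. The high libraries were wild-type 1 and transgenic 5, and the groups overlapped over most of their range. With 49 and 113 counts in all, the log2 fold change was 0.83 with a 95% interval of -0.67 to 2.34 (edgeR adjusted p = 0.597). A change of Pax3 as large as that of Pax7 was thus not detectable at this depth and spread.

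Calcr had the smallest adjusted p of the 9 genes. It encodes the calcitonin receptor, a G protein-coupled receptor found on quiescent satellite cells and on osteoclasts. Wild-type libraries held 1.81, 2.12, 1.83, 2.60 and 1.66 CPM, and transgenic libraries 6.28, 6.47, 5.63, 7.42 and 7.08 CPM. The lowest transgenic library was above the highest wild-type library by more than the range of either group. The means were 2.0 ± 0.373 CPM and 6.58 ± 0.698 CPM (SD, n = 5 each), a log2 fold change of 1.71 ± 0.16 (SE), with an adjusted p of 5.45e-05 in edgeR. The authors' deposited table gives Calcr a log2 fold change of 1.71 with an adjusted p of 6.25e-16. Its locus in GRCm38 is chromosome 6, 3685680 to 3764714, minus strand, which also holds the microRNA genes Mir653 and Mir489 on the same strand.

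Myf5, the bHLH factor that Pax7 is known to switch on in satellite cells, changed by a similar factor. Wild-type libraries held 2.36, 2.54, 1.61, 2.86 and 1.81 CPM, and transgenic libraries 6.95, 8.89, 4.24, 7.23 and 9.14 CPM. Transgenic library 3 was the lowest of its group and still above all wild-type libraries. The log2 fold change was 1.71 ± 0.23 (SE), with an adjusted p of 0.000940 in edgeR. Myf5 and Myf6 are neighbours on chromosome 10, 6718 bases apart on the same strand with no annotated gene between them, Myf5 from 107482908 to 107486134 and Myf6 from 107492853 to 107494737 (GRCm38). Of this pair Myf5 passed the test and Myf6 did not, and the difference between them was not tested.

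Myf6, also called MRF4, was at 65.6, 62.6, 77.2, 78.1 and 80.9 CPM in wild type and at 58.0, 64.5, 65.4, 65.4 and 65.6 CPM in the transgenic group. The groups overlapped, and the transgenic libraries all lay within the lower part of the wild-type range or below it. The log2 fold change was -0.19 with a 95% interval of -0.41 to 0.03 (edgeR adjusted p = 0.348). With 5284 and 5864 counts Myf6 is the best measured of the 9, and a rise of the size seen for Myf5 lies outside its interval. Scaled to library totals alone, its log2 fold change was 0.06.

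Myod1, the bHLH factor of activated satellite cells and myoblasts, did not pass the test. Wild-type libraries held 2.84, 1.19, 2.50, 2.41 and 1.73 CPM, and transgenic libraries 1.0, 1.68, 2.47, 1.47 and 1.67 CPM. The groups overlapped over almost their whole range. The log2 fold change was -0.38 with a 95% interval of -0.98 to 0.23 (edgeR adjusted p = 0.541). Myod1 had 156 and 150 counts over the groups, close to the 158 of Myf5 in wild type, and its interval does not reach the change of Myf5 or Pax7.

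Myog, or myogenin, the bHLH factor of differentiating myocytes, varied more within groups than between them. Wild-type libraries held 7.32, 5.84, 8.10, 11.1 and 4.69 CPM, and transgenic libraries 4.5, 5.31, 9.37, 10.9 and 5.02 CPM. Transgenic libraries 3 and 4 were high and the others low, and wild-type library 4 was higher than all of them. The log2 fold change was -0.08 with a 95% interval of -0.69 to 0.53 (edgeR adjusted p = 0.919). Its sign turned under several settings, and the lowest and highest values with 1 library left out were -0.30 and 0.09.

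Cdh15, the M-cadherin of the contact between satellite cell and fibre, was at 9.37 to 12.4 CPM in wild type. Transgenic libraries held 10.1, 9.55, 20.8, 12.1 and 10.4 CPM, so that library 3 alone lay above the wild-type range. The log2 fold change was 0.17 with a 95% interval of -0.27 to 0.60 (edgeR adjusted p = 0.740), and it was -0.09 without transgenic library 3. Cdh15 overlaps Gm20388 on the same strand, and reads shared between them may have gone uncounted or to either.

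Mymk, the fusion protein myomaker, was the member with the lowest fold change. Wild-type libraries held 1.26, 1.19, 1.5, 1.11 and 0.650 CPM, and transgenic libraries 0.167, 0.931, 0.316, 0.804 and 0.129 CPM. Of the transgenic libraries, 3 lay below every wild-type library, and the other two lay within the wild-type range. The log2 fold change was -1.21 ± 0.45 (SE), with an unadjusted p of 0.0188 that did not pass over all genes (edgeR adjusted p = 0.164). These values rest on 83 and 47 counts. The authors' deposited table gives Mymk, listed as Tmem8c, a log2 fold change of -1.25 with an adjusted p of 0.115. Mymx, its partner in fusion, listed as Gm7325, was too low to test.

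To show the sequence next to the genes that rose most and to one that did not pass, the bases from 250 to 21 before the RefSeq start of Myf5, Calcr and Myog follow, 5′ to 3′ on the strand of each gene. They lie at chr10:107486155-107486384 (minus), chr6:3764734-3764963 (minus) and chr1:134289754-134289983 (plus) in GRCm38.p6. Capitals mark the E-box CANNTG, which bHLH factors bind.
Myf5: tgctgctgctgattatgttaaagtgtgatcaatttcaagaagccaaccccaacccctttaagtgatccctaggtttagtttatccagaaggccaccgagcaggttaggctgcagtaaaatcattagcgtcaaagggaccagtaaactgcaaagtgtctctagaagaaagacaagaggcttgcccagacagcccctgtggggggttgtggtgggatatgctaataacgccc
Calcr: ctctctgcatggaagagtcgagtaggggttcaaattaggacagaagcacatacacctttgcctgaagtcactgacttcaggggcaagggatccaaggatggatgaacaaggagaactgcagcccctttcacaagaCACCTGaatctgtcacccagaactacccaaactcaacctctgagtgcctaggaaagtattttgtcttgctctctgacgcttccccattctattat
Myog: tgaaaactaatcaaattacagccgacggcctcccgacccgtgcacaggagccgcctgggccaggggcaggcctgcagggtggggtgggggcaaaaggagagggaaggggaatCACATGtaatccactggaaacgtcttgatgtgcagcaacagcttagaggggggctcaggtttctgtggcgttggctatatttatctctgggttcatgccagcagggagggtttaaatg

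The window of Calcr holds 1 E-box, whose first base lies 115 bases before the start, that of Myog holds 1, at 138 bases, and that of Myf5 holds none. A second RefSeq start of Calcr has no E-box in its window. Of 32851 promoter windows of the same 230 bases, 63.5% hold at least 1 E-box, so a single match is common. The E-box CAGCTG is in 11.8% of windows, TGGGAA, the core of the site of the Notch effector RBPJ, in 20%, and the TATA box TATAAA in 11.8%. None of these 3 was found on either strand in the windows of Myf5, Calcr and Myog. CAGCTG is itself one form of CANNTG. RefSeq's table held windows for 5 of the 9 genes, and those that meet an annotated exon were not used here.

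Per length of merged exons the order of the 9 genes differed between groups. In wild type Myf6 was highest at 57.7 ± 6.50 CPM per kilobase, followed by Myog at 4.95 ± 1.63 and Cdh15 at 3.45 ± 0.403 CPM per kilobase (SD, n = 5). Myod1 at 1.15 ± 0.356, Myf5 at 1.07 ± 0.250 and Mymk at 0.755 ± 0.206 CPM per kilobase came next, then Calcr at 0.512 ± 0.0953, Pax7 at 0.432 ± 0.0699 and Pax3 at 0.117 ± 0.128. Apart from the step from Myf6 to Myog, neighbours in this order had overlapping ranges over libraries, except Cdh15 above Myod1 and Pax7 above Pax3. In the transgenic group Myf5, at 3.50 ± 0.942, and Calcr, at 1.68 ± 0.179 CPM per kilobase (SD, n = 5), stood above Myod1, at 0.890 ± 0.285. Myf5 there overlapped Cdh15, at 3.88 ± 1.43 CPM per kilobase. Myf6 stayed the highest in both groups, and Pax3 the lowest.

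Whether the genes changed by different factors was asked with the count of each gene over that of Pax7 in the same library, a ratio that does not depend on library size or scaling. Myf6, Myod1, Myog, Cdh15, Myf5 and Calcr had enough counts, a mean normalized count of at least 20, and gave 6 ratios. Each was tested with a two-sided exact permutation test, in which all ways to label 5 of the 10 libraries as transgenic are run and the smallest p is 0.00794, with Benjamini-Hochberg adjustment over the 6. All 6 ratios differed between the groups. They share the count of Pax7, which was itself called higher, so they are not 6 separate results.

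Calcr rose more than Pax7. There were 0.803 ± 0.153 counts of Calcr per count of Pax7 in wild type, from 0.622 to 1.0, and 1.40 ± 0.279 in the transgenic group, from 1.11 to 1.85 (SD, n = 5 each). The groups did not overlap, and the log2 ratio was higher by 0.79 (exact permutation p = 0.00794, adjusted p = 0.0159). For Myf5 the log2 ratio was higher by 0.75 (exact permutation p = 0.0317, adjusted p = 0.0317), with 0.735 to 1.2 counts per count of Pax7 in wild type and 0.838 to 2.05 in the transgenic group. Transgenic library 3, at 0.838, lay within the wild-type range, and the other four transgenic libraries lay above it. The adjusted p for Myf5 was 0.0556 in each of 6 repeats of the exact permutation test, those that left out transgenic library 1, 2 or 5 or wild-type library 1, 3 or 5.

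The ratios of Myod1, Myf6, Myog and Cdh15 to Pax7 were lower in the transgenic group. Myod1 had 0.560 to 1.15 counts per count of Pax7 in wild type and 0.267 to 0.487 in the transgenic group, a difference of -1.27 in the log2 ratio (exact permutation p = 0.00794, adjusted p = 0.0159). Myf6 had 22.5 to 35.7 and 11.9 to 17.1, a difference of -1.10 (exact permutation p = 0.00794, adjusted p = 0.0159). Neither pair of groups overlapped. For Myog the difference was -1.03 (exact permutation p = 0.0159, adjusted p = 0.0238) and for Cdh15 -0.80 (exact permutation p = 0.0317, adjusted p = 0.0317), and these groups overlapped. Leaving out wild-type library 3 gave an adjusted p of 0.0556 for Myog and for Cdh15, and so did leaving out wild-type library 5, or either of transgenic libraries 2 and 5, for Cdh15. Since Pax7 itself rose, a lower ratio shows unequal change and not that Myod1, Myf6, Myog or Cdh15 fell.

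**Figure D2:**
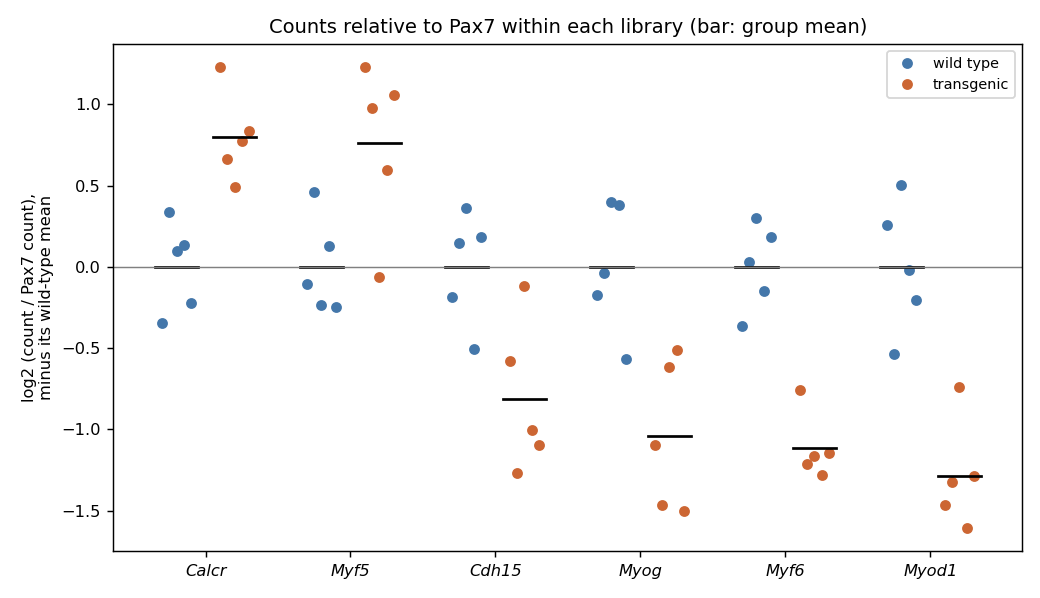
Log2 ratio of the count of each gene to the count of Pax7 in the same library, minus its wild-type mean (y axis), for wild-type (blue) and transgenic (orange) libraries, 5 each, with the group mean as a bar. Calcr, Myf6 and Myod1 have no overlap between groups, and of the transgenic points of Myf5 and of Cdh15, library 3 lies nearest to 0.

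Transcripts of liver were also higher in the transgenic group. Leukocyte markers were so in part, and their sums overlapped between the groups. Of 22 hepatocyte markers 20 rose and none fell, with a median log2 fold change of 3.44. Leaving out wild-type library 3 brought the 20 to 13. Their sum was 181 to 359 CPM in wild type and 509 to 5519 CPM in the transgenic group, highest in transgenic libraries 5 and 4, and none of the 22 was at 0 in any library. Of 10 leukocyte markers tested 1 rose, against 4.28% of all genes. This was Cd74, an antigen presentation gene named after its value was seen. Its log2 fold change was 0.89 ± 0.21 (SE), with an adjusted p of 0.0220 in edgeR. The call of Cd74 ended on leaving out transgenic library 1 or 2 or any wild-type library but 2 (edgeR adjusted p from 0.0513 to 0.0726). More of the 10 passed in other fits: 5 without transgenic libraries 4 and 5, 4 without transgenic library 5, 2 without transgenic library 3, and 3 with DESeq2, in the authors' deposited table or with the hepatocyte covariate. With library totals as the only scaling 5 passed. The median log2 fold change of the 10 was 0.67, and the sum of all 12 in the table was 113 to 213 CPM in wild type and 142 to 357 CPM in the transgenic group. Cd3e, a marker of T cells, was at 0 in at least 1 library. The part of liver and leukocyte transcripts in the rise of Calcr, Myf5 and Pax7 was not tested.

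Calcr stayed past the threshold with the mean of the hepatocyte markers as a covariate, at a log2 fold change of 1.51 ± 0.27 (SE), with an adjusted p of 0.0269 in edgeR. In that fit Myf5 had 1.27 ± 0.35 and Pax7 0.72 ± 0.30 (SE; edgeR adjusted p = 0.152 and 0.364), with an SE above that of the comparison without the covariate. The covariate itself separates the groups, at 1.49 to 2.31 in wild type and 3.17 to 6.63 in the transgenic group in mean log2 CPM. With leukocyte markers as the covariate the same 3 genes passed. Without transgenic libraries 4 and 5 the log2 fold change of Pax7 was 0.84 (edgeR adjusted p = 0.0568), while Calcr and Myf5 passed. Leaving out any 1 library ended no call of these 3 genes, with an edgeR adjusted p of at most 0.0426 for Pax7, 0.00479 for Myf5 and 0.000529 for Calcr.

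**Figure D3:**
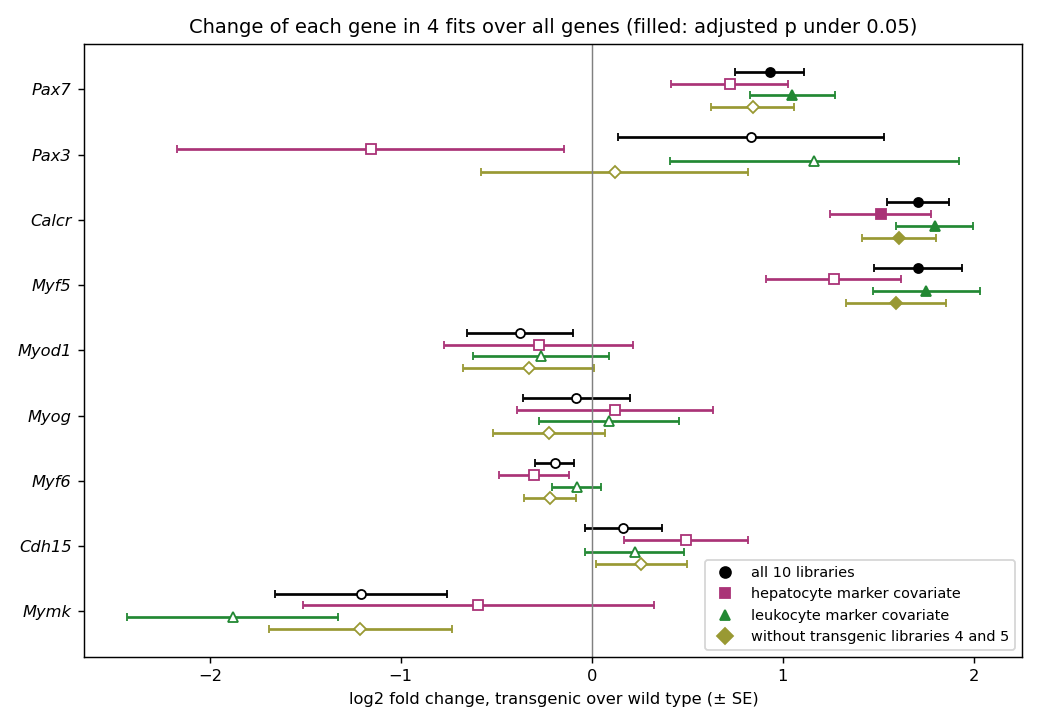
Log2 fold change, transgenic over wild type (x axis, ± SE), of the 9 genes in 4 fits over all genes; filled symbols have an adjusted p under 0.05. Calcr is filled in all 4 fits, Myf5 in 3 and Pax7 in 2, and the other 6 genes in none.

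Other genes of satellite cells rose in part. Of 22 genes of the satellite cell surface and of quiescence 4 rose and none fell, and the median log2 fold change was 0.21. Of all genes tested, 4.28% were called higher and 1.05% lower. Chodl, a transmembrane lectin, had 12.0 ± 4.48 CPM in wild type against 29.3 ± 5.86 CPM in transgenic muscle (SD, n = 5 per group), with an adjusted p of 0.00484 in edgeR and no overlap between groups. Vcam1, an adhesion molecule of satellite cells that endothelium and some leukocytes also hold, rose by a log2 fold change of 0.96 ± 0.20 (SE), with an adjusted p of 0.0133 in edgeR. Msc, a bHLH repressor of muscle differentiation also called MyoR, rose by 1.17 ± 0.26 (SE), with an adjusted p of 0.0182 in edgeR, and it overlaps the antisense gene Gm9947. The remaining gene was Fgfr4, a fibroblast growth factor receptor of myogenic cells, which falls outside the rule for named genes and was chosen after its value was seen. It had a log2 fold change of 1.02 ± 0.24 (SE), with an adjusted p of 0.0276 in edgeR.

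None of these 4 passed with the hepatocyte covariate, where the log2 fold changes were 1.12 for Chodl, 1.42 for Vcam1, 0.95 for Msc and 0.46 for Fgfr4. Vcam1 had a log2 fold change of 0.64 with the leukocyte covariate and of 0.65 without transgenic libraries 1 and 2, the highest in leukocyte markers, and passed in neither fit. Msc had 0.99 and 0.98 in the same fits and also passed in neither. For Msc the adjusted p in edgeR was 0.0569 to 0.0602 when wild-type library 3, 4 or 5 was left out. For Fgfr4 the adjusted p in edgeR was 0.0566 to 0.0816 on leaving out transgenic library 2, 4 or 5 or any wild-type library but 5. The count of 4 was 2 without wild-type library 3 or 4, and 2 genes fell without transgenic library 3. It was also 2 with the leukocyte covariate and without transgenic libraries 1 and 2, and 7 with library totals as the only scaling. DESeq2 and the authors' deposited table each had 1 gene of the list lower. Among those that did not pass were Itga7, at a log2 fold change of 0.21, and Cd34, at -0.09, both cell surface proteins used to sort satellite cells and chosen for mention after their values were seen.

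No gene listed as a relative, modifier or ligand of Calcr passed, and Ramp3 of that list was not among the genes deposited. The share called over all genes tested was 5.33%, so none of 6 is near it. Of 6 genes tested, Calcrl, Ramp1 and Ramp2, which encode a related receptor and receptor-modifying proteins, and the 3 chains of collagen V, a known ligand of Calcr in the satellite cell niche, none passed edgeR's test and none had an unadjusted p under 0.05. DESeq2 called none of them either. All 6 log2 fold changes were below 0, with a median of -0.05. Ramp1 had the smallest p, at a log2 fold change of -0.29 ± 0.23 (SE), with an adjusted p of 0.580 in edgeR.

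Of 26 cofactors and antagonists of the bHLH factors, such as the E proteins, the Mef2 factors and the Id proteins, none passed edgeR's test. The share called over all genes tested was 5.33%. An unadjusted p under 0.05 in edgeR was found for 4 of the 26. DESeq2 called none. The median log2 fold change was 0.07. Id2, an inhibitor that binds E proteins, had the smallest p, at 0.70 ± 0.24 (SE), with an adjusted p of 0.128 in edgeR. With library totals as the only scaling, which moves the median of all genes to 0.27, 4 of the 26 were called higher. Leaving out wild-type library 2 or transgenic library 3 gave 1 called lower.

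Notch signalling is known to hold satellite cells at rest. Of 14 genes tested, Dll1, a ligand, and Heyl, a bHLH repressor and target of the pathway, rose and none fell, with a median of 0.23. The share called higher over all genes was 4.28%. Dll1 stood at 2.36 to 4.26 CPM in wild type and 36.0 to 94.7 CPM in the transgenic group, and its lowest transgenic library was library 2, not library 1 or 3 as for Pax7 or Myf5. Heyl had a log2 fold change of 0.86 ± 0.22 (SE), with an adjusted p of 0.0381 in edgeR, and it lost its call when any 1 library other than transgenic library 1 was left out, at an adjusted p of 0.0597 to 0.109 in edgeR. With the hepatocyte covariate Heyl stood at 0.65 (edgeR adjusted p = 0.489). The receptors Notch1, Notch2 and Notch3 did not pass.

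Of 20 genes of myoblast adhesion and fusion 1 rose, against 4.28% of all genes, and the list median was 0.11. Gas1, a membrane co-receptor of Hedgehog signals, was the gene that rose. Its log2 fold change was 0.64 ± 0.15 (SE), with an adjusted p of 0.0274 in edgeR. Gas1 did not pass when a wild-type library or transgenic library 2 was left out (edgeR adjusted p from 0.0523 to 0.0939), and 3 genes of the list passed without transgenic library 3. DESeq2 and the authors' deposited table each had 2 genes of this list higher, and library totals as the only scaling gave 6. Gas1 stood at 0.92 with the hepatocyte and 0.51 with the leukocyte covariate (edgeR adjusted p = 0.143 and 0.169). Of 18 growth factors and receptors of the niche 1 rose, the imprinted growth factor Igf2, against 4.28% of all genes, and the median was 0.10. In the authors' deposited table, with DESeq2 and without transgenic library 3, 2 of the 18 were higher and 1 lower, and 1 was lower without wild-type library 2. Igf2 stood at 33.8, 41.8, 26.5, 28.5 and 26.4 CPM in wild type and at 87.3, 71.1, 75.1, 86.4 and 80.3 CPM in the transgenic group. The groups did not overlap, and the log2 fold change was 1.35 ± 0.14 (SE), with an adjusted p of 0.000104 in edgeR, or 1.38 ± 0.24 beside the hepatocyte covariate (SE), with an adjusted p of 0.0259 in edgeR. Igf2 overlaps a tested gene, so some of its reads may belong to that gene.

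**Figure D4:**
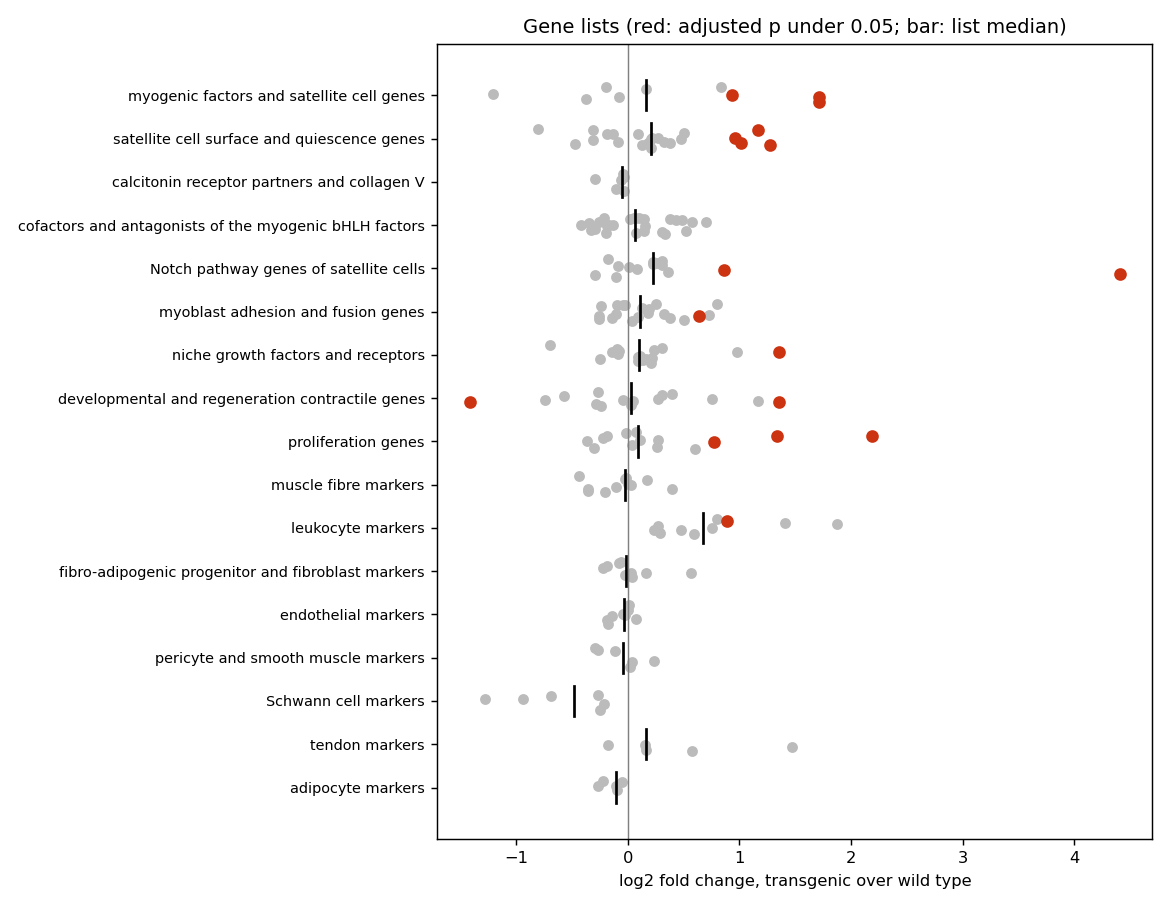
Log2 fold change, transgenic over wild type (x axis), of every gene tested in 17 gene lists (rows), with called genes in red and the list median as a bar; hepatocyte markers, with a median of 3.44, are left out. The red points of the upper 2 rows are Calcr, Myf5 and Pax7, and Chodl, Msc, Fgfr4 and Vcam1; the single point beyond 4 is Dll1.

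The markers of other cells of muscle did not pass edgeR's test over all 10 libraries. Of all genes tested 5.33% were called, so lists this short can hold none at that share. None was called among 10 markers of fibro-adipogenic progenitors and fibroblasts (median log2 fold change -0.01), 8 of endothelium (-0.03), 6 of pericytes and smooth muscle (-0.05), 6 of Schwann cells (-0.48), 5 of tendon (0.16) and 5 of adipocytes (-0.10). In these lists 3 genes had an unadjusted p under 0.05 in edgeR, 1 each for fibroblasts, Schwann cells and tendon. DESeq2, the authors' deposited table and library totals alone each called 1 fibroblast and 1 tendon gene as higher. Without transgenic library 2, or without transgenic libraries 1 and 2, 1 tendon gene was called higher. With the leukocyte covariate 1 fibroblast gene was called lower. The sum of Schwann cell markers ran from 20.8 to 257 CPM in wild type and from 19.9 to 88.0 CPM in the transgenic group. Wide spread of this kind limits what the test could detect in these lists.

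The profiles nearest to Pax7 and Calcr were sought by the root mean square difference in log2 CPM, each gene centred on its own mean over the 10 libraries, among 12153 other genes. Nearest to Pax7 were Stau2, an RNA-binding protein, Wls, which carries Wnt proteins to the cell surface, and Slc47a1, a transporter of organic cations, with differences of 0.16, 0.18 and 0.19. Nearest to Calcr were Ppm1e, a protein phosphatase, Hs6st2, a heparan sulphate sulphotransferase, and Vcpkmt, a lysine methyltransferase, at 0.18, 0.22 and 0.23. Calcr and Myf5 were 0.25 apart, which ranked Calcr second for Myf5 and Myf5 sixth for Calcr, while Pax7 was further from both, at 0.52 from Myf5 and 0.45 from Calcr. The 3 genes nearest to Pax7 and the 3 nearest to Calcr were themselves higher in the transgenic group, with edgeR adjusted p from 6.47e-06 for Hs6st2 to 0.00625 for Slc47a1. With the hepatocyte covariate Hs6st2 passed and the other 5 did not, with edgeR adjusted p from 0.0553 for Ppm1e to 0.289 for Slc47a1. A profile that steps up between the groups brings genes near to each other in this measure, and the distance is a description without a test.

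**Figure D5:**
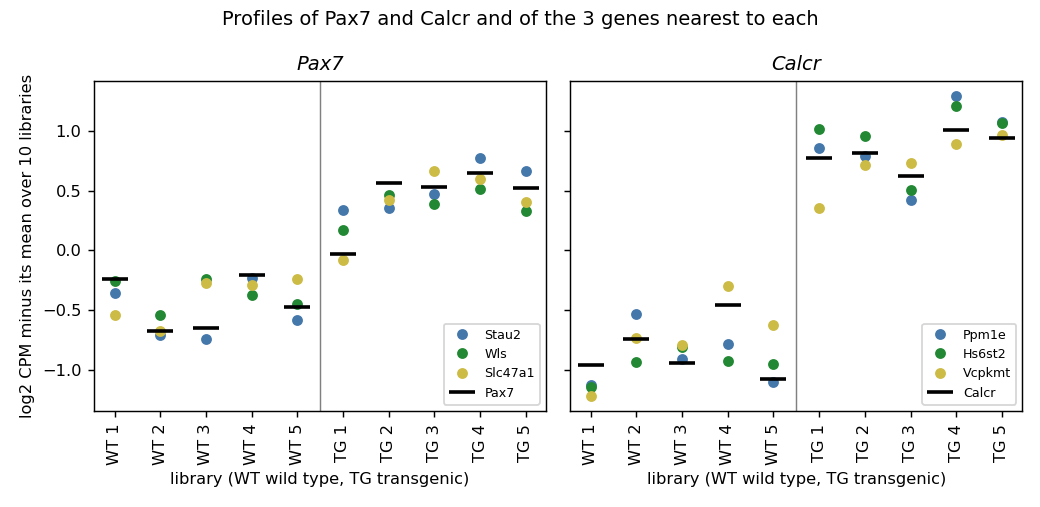
Log2 CPM minus its mean over the 10 libraries (y axis) by library (x axis) for Pax7 and Calcr (black bars) and for the 3 genes nearest to each (points). Among transgenic libraries, Calcr is lowest in library 3 and Pax7 in library 1.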

How the data were processed

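The authors deposited 1 table of RNA-seq of 10 libraries. The submitters' processing notes name the aligners TopHat2 2.1 and Bowtie2 2.2.6, the counter HTSeq 0.6.1, SAMtools 1.2, DESeq2 1.10 and the build GRCm38. Whether strand was used in counting is not known from the labels. The deposited counts are raw whole-number counts per gene. Beside them are the authors' mean normalised signal, log2 fold change with its SE, Wald score and p-values.

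After filterByExpr and TMM, transgenic was tested against wild type in edgeR 4.0.16 (R 4.3.3), with Benjamini-Hochberg adjustment over 13338 genes. DESeq2 1.42.0 was an alternative. Each SE is the fold change over the root of F. Log2 CPM used a prior count of 2 and ratios 0.5 added to each count. Coordinates and exon lengths are from GENCODE M21 (GRCm38), promoter sequences from RefSeq (GRCm38.p6). The scripts were tested on simulated data. Counts of every pair within a group differed beyond sampling noise (chi-square per degree of freedom at least 17.5 in 20 pairs).

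The members and the 18 lists were chosen with earlier results of these data known. The rule names the 9 members, Zfp407, up to 3 called genes of each list around the members or else the gene with the smallest p, and the 3 nearest profiles of each called member; those of Myf5 are not all reported here. Alternatives were other size factors, filters, tools and thresholds, covariates, and libraries left out singly or in pairs.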

Additional observations from a re-analysis of the deposited data

Results flagged for a closer look

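In 9 of 62 groups of 5 libraries, over 31 named genes, 1 library stood apart from the other four by Dixon's test at the 95% level, where chance flags about 1 in 20. Among the members these were Pax7 in transgenic library 1, at 3.39 CPM against 5.02 to 5.48 CPM, and Pax3 in wild-type library 1, at 2.13 CPM against 0.277 to 0.586 CPM. Myf6 in transgenic library 1 stood at 58.0 CPM against 64.5 to 65.6 CPM, and Cdh15 in transgenic library 3 at 20.8 CPM against 9.55 to 12.1 CPM. Transgenic library 1 was thus the low one for both Pax7 and Myf6.

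Among the other genes, Chodl was high in wild-type library 3, at 19.8 CPM, and Ramp1 in wild-type library 1, at 29.1 CPM. Cdkn1c was low in wild-type library 5, at 24.5 CPM, and high in transgenic library 2, at 23.1 CPM. Ccne1 was low in transgenic library 2, at 0.931 CPM.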

How the results depend on the processing

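Calcr, Myf5 and Pax7 were called in all 10 fits with 1 library left out and under every alternative scaling, filter and tool, in the authors' deposited table and at an adjusted p of 0.01; with the hepatocyte covariate 1 of the 3 passed and without transgenic libraries 4 and 5 2 passed. Over all genes, 711 were called, 571 higher and 140 lower. The counts were 2014 (1971 and 43) with library totals alone, 69 (64 and 5) with the hepatocyte covariate, 1230 (899 and 331) with DESeq2 and 1158 (876 and 282) in the authors' table, and 56 were lower without transgenic libraries 4 and 5. Leaving out 1 library gave 450 to 1116 called, 342 to 764 higher and 92 to 352 lower. The share of calls that were higher was 80.3%, against 97.9% with library totals alone, which moved the median of all genes to 0.27 (log2).

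Log2 ratios to Pax7 with 1 library left out ran from 0.64 to 0.96 for Myf5, -1.17 to -0.91 for Myog and -0.98 to -0.69 for Cdh15. Without transgenic libraries 4 and 5 they were 0.71 for Myf5 and -0.64 for Cdh15 (exact permutation, adjusted p = 0.0893 each), and without transgenic libraries 1 and 2 0.53 for Myf5, -0.87 for Myog and -0.73 for Cdh15 (0.143, 0.0804 and 0.0857), with fewer libraries. Ratios of Calcr, Myf6 and Myod1 passed in each of these and with 1 added to each count.

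Signs turned only in genes that did not pass. Pax3 had -1.16 with the hepatocyte covariate and Myf6 0.0589 with library totals alone. Myog had 0.17 with library totals alone, 0.12 with the hepatocyte and 0.0896 with the leukocyte covariate and 0.18 without transgenic libraries 1 and 2. With 1 library left out Myog ran from -0.30 to 0.0866 and Cdh15 from -0.0872 to 0.25. The cause was not tested. The nearest profiles were the same genes with a prior count of 0.5. No paired analysis was possible because the columns carry no number that ties a wild-type to a transgenic mouse. Depth limits Pax3 and Mymk most, with 49 and 83 counts over the wild-type libraries.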

Other observations

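Cell cycle and developmental genes, which also mark activated satellite cells and regenerating fibres, changed in part. Of 14 proliferation genes 3 rose and none fell, with a median log2 fold change of 0.09. Over all genes tested, 4.28% were called higher and 1.05% lower. Ccnd1, a cyclin of the early cell cycle, averaged 2.66 ± 0.981 CPM in wild type against 6.80 ± 0.700 CPM in transgenic muscle (SD, n = 5 per group), with an adjusted p of 0.00389 in edgeR, and it overlaps a tested gene on the other strand. Ccne1, the cyclin of entry into S phase, had 21 counts in all of wild type and 125 in the transgenic group, with a log2 fold change of 2.19 ± 0.38 (SE) and an adjusted p of 0.00562 in edgeR. Mcm6, a subunit of the replicative helicase, rose by 0.77 ± 0.18 (SE), with an adjusted p of 0.0226 in edgeR but not on leaving out transgenic library 2 or any wild-type library but 1 (edgeR adjusted p from 0.0513 to 0.0784). Mcm6 stood at 0.54 with the leukocyte covariate and 0.72 without transgenic libraries 1 and 2, the highest in leukocyte markers (edgeR adjusted p = 0.193 and 0.109). None of the 3 passed with the hepatocyte covariate, where their log2 fold changes were 1.5, 2.01 and 1.2. The proliferation markers Mki67 and Top2a did not pass.

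Of 15 developmental and regeneration genes 1 rose, Igf2, and 1 fell, Cdkn1c, which encodes a cyclin-dependent kinase inhibitor. The shares over all genes tested were 4.28% higher and 1.05% lower. The median log2 fold change of the 15 was 0.03. In the authors' deposited table, with DESeq2 and without transgenic library 5, 2 of the 15 were higher. Cdkn1c had 40.3 ± 8.91 CPM in wild type against 15.1 ± 4.61 CPM in transgenic muscle (SD, n = 5 per group), a log2 fold change of -1.42 ± 0.21 (SE), with an adjusted p of 0.00196 in edgeR, and it stood at -1.0 with the hepatocyte covariate (edgeR adjusted p = 0.275). The embryonic and neonatal myosins Myh3 and Myh8, which regenerating fibres express, did not pass.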
